A study of Mus musculus with 60 samples.

Results

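The genes described here are 38 markers of blood-derived cells, taken by name from the deposited count table of sorted mouse intestinal epithelium. They are 38 of the 55357 genes listed there, and all 38 passed the filter on low counts, which left 23360 genes. A gene could pass the filter through its GFP-negative libraries alone. Cd4, Cd2 and Xcl1, for instance, had a median of 0 over the 20 GFP-high libraries. By role they fall into 5 pan-leukocyte genes, 12 genes of the T cell receptor complex and its coreceptors, 8 genes of cytotoxic and intraepithelial lymphocytes, 4 of B and plasma cells, 7 of myeloid and dendritic cells and 2 of mucosal mast cells. All mice were 8 weeks old and carried Lgr5-2A-eGFP, in which eGFP is made together with Lgr5, the R-spondin receptor of crypt base stem cells. The small intestine (proximal, middle and distal) and the colon (proximal and distal) each gave fractions that were GFP-high, GFP-intermediate or GFP-negative, which makes 15 groups of 4 polyA RNA libraries. GFP is the only sorting signal that the labels name, and whether other gates were used is not stated; cells were released by chelation and TrypLE. The labels do not say whether the 4 replicates of a group came from separate mice, and p-values measure only the spread between these libraries.

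Total counts ran from 55411864 to 113917959 per library. The label of epithelial cells held in every library, where 11 epithelial genes summed to 7288 to 9442 CPM (counts scaled to the TMM-adjusted library total) in GFP-high cells, 8658 to 18186 CPM in GFP-intermediate cells and 9923 to 26231 CPM in GFP-negative cells. Markers of other cells that could come along were low: stromal and endothelial genes summed to at most 44.0 CPM, granulocyte genes to at most 11.5 CPM, and erythroid and platelet genes to at most 10.5 CPM in any library. Over all libraries 76.6% of the counts between 1 and 20 were even. Whether both reads of a pair were counted is not stated; counting error would then be larger than the counts themselves give.

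Leukocytes live inside the gut epithelium as well as beneath it. Intraepithelial lymphocytes are T cells that sit between the epithelial cells; many carry the CD8 alpha chain without the beta chain, many use the gamma-delta receptor, and the integrin alpha E chain lets them bind E-cadherin. They hold granzymes ready for killing. Plasma cells of the lamina propria export dimeric IgA joined by the J chain, and mucosal mast cells store the chymases Mcpt1 and Mcpt2.

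The promoters of genes on which the results turn are given first, from 250 bases before to 50 after an annotated start (RefSeq, GRCm38.p6). Cd3e and Gzma stand for the genes whose level in GFP-high cells was a small share of that in GFP-negative cells in most parts, and Lck and Lyz2 for the few with a larger share in some parts. The RefSeq table matched 22 of the 38 genes with 27 windows. Capitals mark AGGAAG or its reverse complement CTTCCT, a core that ETS factors bind, and TGTGGT or ACCACA, a core that RUNX factors bind; both strands were searched. Lck has 2 annotated starts, at chr4:129573592-129573891 and chr4:129558323-129558622, and all windows shown lie on the minus strand. The others are Cd3e at chr9:45009562-45009861, Gzma at chr13:113100932-113101231 and Lyz2 at chr10:117282223-117282522.
Cd3e: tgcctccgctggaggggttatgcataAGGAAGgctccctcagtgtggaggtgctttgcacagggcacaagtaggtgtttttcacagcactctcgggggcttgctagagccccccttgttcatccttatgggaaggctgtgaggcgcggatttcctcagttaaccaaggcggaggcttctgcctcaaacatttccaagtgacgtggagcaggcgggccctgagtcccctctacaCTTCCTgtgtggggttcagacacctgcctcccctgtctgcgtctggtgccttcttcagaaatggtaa
Gzma: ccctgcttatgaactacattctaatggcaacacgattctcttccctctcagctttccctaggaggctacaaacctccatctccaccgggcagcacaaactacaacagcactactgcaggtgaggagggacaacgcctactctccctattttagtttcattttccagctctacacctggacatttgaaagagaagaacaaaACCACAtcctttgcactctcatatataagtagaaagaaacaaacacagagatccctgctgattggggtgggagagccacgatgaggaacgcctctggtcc
Lck upstream start: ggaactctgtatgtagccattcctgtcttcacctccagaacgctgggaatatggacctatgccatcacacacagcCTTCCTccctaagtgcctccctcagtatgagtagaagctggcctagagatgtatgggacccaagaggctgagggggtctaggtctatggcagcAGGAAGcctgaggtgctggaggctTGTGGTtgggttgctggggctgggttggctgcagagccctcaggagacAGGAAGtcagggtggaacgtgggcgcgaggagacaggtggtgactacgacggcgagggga
Lck downstream start: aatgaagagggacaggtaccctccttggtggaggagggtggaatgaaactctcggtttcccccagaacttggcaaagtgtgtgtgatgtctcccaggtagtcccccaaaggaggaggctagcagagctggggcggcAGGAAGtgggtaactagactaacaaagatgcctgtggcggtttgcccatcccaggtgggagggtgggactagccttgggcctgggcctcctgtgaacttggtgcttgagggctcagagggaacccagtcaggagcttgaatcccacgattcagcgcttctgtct
Lyz2: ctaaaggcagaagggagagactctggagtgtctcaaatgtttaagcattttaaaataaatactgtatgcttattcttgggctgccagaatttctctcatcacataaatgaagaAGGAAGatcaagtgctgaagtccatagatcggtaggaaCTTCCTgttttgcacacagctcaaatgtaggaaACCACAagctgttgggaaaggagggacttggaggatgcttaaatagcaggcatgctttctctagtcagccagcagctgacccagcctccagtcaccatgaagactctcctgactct
The ETS core was in 18 of the 27 windows of these genes and in 35.4% of all 32851 windows of the table. The RUNX core was in 11 of the 27 and in 16.8% of all windows. These are matches of letters and not binding sites.

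The leukocyte genes were low in GFP-high cells and clearly present in GFP-negative cells of every gut part. Their summed level was 91.1, 54.3, 61.7 and 60.3 CPM in the 4 GFP-high libraries of the proximal small intestine, against 6315, 820.4, 2543 and 1975 CPM in its GFP-negative libraries. The distal colon had 10.3, 16, 10.7 and 9.87 CPM in GFP-high libraries, against 219.2, 387.8, 229.6 and 569.3 CPM in GFP-negative libraries. The lowest GFP-negative library of all, in the distal colon, thus lay above the highest GFP-high library of all. As a share of all counts, the 38 genes took 0.00102% to 0.00949% in GFP-high libraries, 0.00116% to 0.0128% in GFP-intermediate libraries and 0.0218% to 0.574% in GFP-negative libraries. In bulk samples fewer leukocytes and less RNA per leukocyte cannot be told apart.

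**Figure D1:**
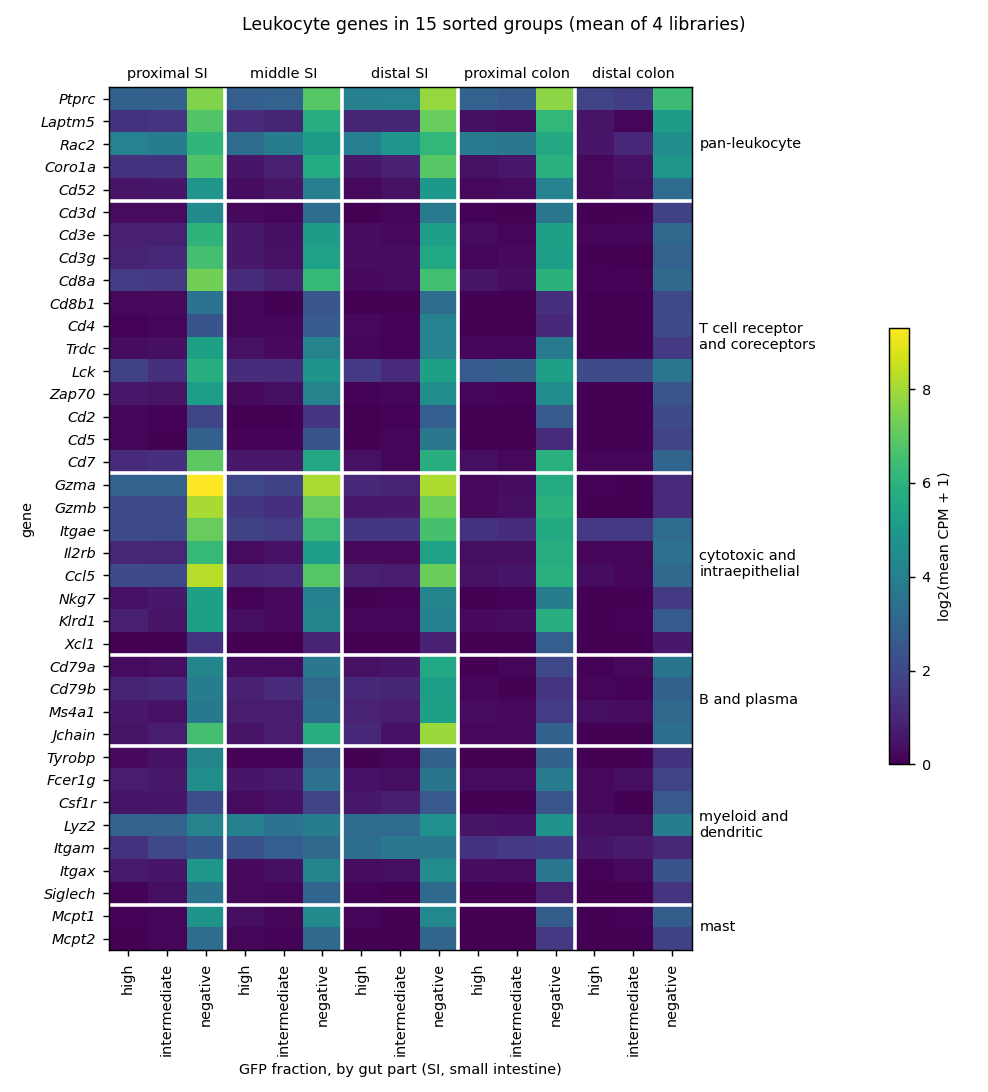
Mean CPM of each of the 38 leukocyte genes (down the page, by role) in the 15 groups (across), on a colour scale of log2(mean CPM + 1) where brighter is higher. The GFP-high and GFP-intermediate columns are dark for most genes, while the GFP-negative columns are brighter, most of all for Gzma in the proximal small intestine, which averaged 633.6 CPM there.

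Gene by gene, GFP-high cells had lower levels than GFP-negative cells for 37, 37 and 36 of the 38 genes in the 3 parts of the small intestine, proximal to distal, and for 37 and 38 in the proximal and distal colon (edgeR's quasi-likelihood test, adjusted p below 0.05). Of all genes tested, 24.6%, 25.6%, 26.2%, 14.0% and 13.9% were lower in the same comparisons. A gene that passed the filter through its GFP-negative libraries is prone to a lower call. Counts of the 38 set beside shares of all genes are therefore a description and not a test. None of the 38 was higher in any part, at an adjusted or at an unadjusted p below 0.05 and by DESeq2 as well, whereas 22.5%, 22.7%, 25.7%, 11.3% and 11.2% of all genes were higher. The 4 GFP-high libraries lay below all 4 GFP-negative libraries for 36, 37, 36, 35 and 37 of the 38 genes, against 20.9%, 22.4%, 19.9%, 9.66% and 12.0% of all genes. The median log2 difference over the 38 genes was -6.17, -5.91, -7.45, -7.37 and -6.82 in the same order, where the median over all genes tested lay between -0.04 and 0.00. With the genes that had no count in any GFP-high library set to a bound of 3 counts per library, the last 3 medians were -7.38, -7.19 and -6.16. The GFP-intermediate fraction gave nearly the same picture: 37, 36, 36, 37 and 37 genes were lower than in GFP-negative cells and none was higher (0 also at an unadjusted p below 0.05, and 0 by DESeq2). Of all genes, 21.9%, 21.2%, 21.7%, 7.52% and 5.95% were lower and 19.7%, 19.8%, 22.8%, 7.51% and 3.85% were higher. Both comparisons share the GFP-negative libraries. Within each replicate number, which the deposited table repeats as a batch number, 36 to 38 of the 38 genes were lower in GFP-high or GFP-intermediate cells.

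Ptprc, the CD45 phosphatase found on nearly all white blood cells (chr1:138062861-138175708, minus strand; positions from GENCODE M21, GRCm38), had 10.4, 4.4, 6.16 and 4.7 CPM in GFP-high cells of the proximal small intestine, against 350.8, 54.4, 179.6 and 165.8 CPM in its GFP-negative cells. In the distal small intestine it had 33.2, 10.6, 13.2 and 5.65 CPM in GFP-high cells, against 167.3, 76.7, 241.8 and 422.6 CPM in GFP-negative cells. In the distal part of the colon the GFP-high libraries had 2.72, 3.31, 2.13 and 2.81 CPM, against 43.9, 75.1, 48.7 and 160.6 CPM in the GFP-negative libraries. No GFP-high library reached a GFP-negative library of its own part. The log2 difference was -4.87 ± 0.59, -4.25 ± 0.57, -3.86 ± 0.56, -4.95 ± 0.59 and -4.90 ± 0.60 (± SE) in the 5 parts in anatomical order, with adjusted p-values of at most 7.04e-08. It was -3.64 without GFP-negative replicate 1 of the middle small intestine, -4.53 without GFP-high replicate 1 of the distal small intestine and -4.27 without GFP-negative replicate 3 of the proximal colon.

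Cd3e, a signalling chain of the T cell receptor complex (chr9:44998740-45009627, minus strand), was close to 0 in GFP-high cells. It had 1.21, 0.557, 0.714 and 0.699 CPM in GFP-high cells of the proximal small intestine, against 128.6, 13.2, 61.9 and 55.7 CPM in GFP-negative cells. In the proximal colon it had 0.224, 0.31, 0 and 0.243 CPM in GFP-high cells, against 28.4, 7.36, 81.4 and 35 CPM in GFP-negative cells. In the distal colon only the second GFP-high library had any count, with 0, 0.326, 0 and 0 CPM, against 6.63, 6.05, 3.96 and 14.1 CPM in GFP-negative cells. Cd3e differed on the log2 scale by -6.35 ± 0.88, -5.97 ± 0.87, -7.18 ± 0.93, -7.59 ± 0.95 and -6.62 ± 0.98 in the 5 parts. It was -5.32 in the middle small intestine without GFP-negative replicate 1, -7.77 in the distal small intestine without GFP-high replicate 2, -6.87 in the proximal colon without GFP-negative replicate 3 and -12.27 in the distal colon without GFP-high replicate 2, and the gene was called in each of these fits.

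Gzma, a granule protease of cytotoxic lymphocytes (chr13:113093825-113100981, minus strand), had the highest mean level per transcript length of the 38 genes in GFP-negative cells of the small intestine. GFP-high cells of the proximal small intestine had 8.94, 4.11, 6.95 and 6.66 CPM, against 1379, 146.8, 551.1 and 458 CPM in GFP-negative cells. In the middle small intestine it had 5.79, 2.08, 1.95 and 2.59 CPM in GFP-high cells, against 528.9, 134.1, 255.8 and 193.5 CPM in GFP-negative cells. The first replicate was the highest of its group in all 4 of these sets. The distal colon had 0.308, 0, 0 and 0 CPM in GFP-high cells, against 0.781, 0.328, 1.24 and 2.39 CPM in GFP-negative cells, so that both fractions were low. Gzma differed on the log2 scale by -6.57 ± 0.79, -6.49 ± 0.79, -8.04 ± 0.86, -8.35 ± 0.92 and -3.91 ± 1.00 in the 5 parts. It was -5.85 without GFP-negative replicate 1 of the proximal small intestine, -7.65 without GFP-negative replicate 3 of the proximal colon and -9.57 without GFP-high replicate 1 of the distal colon, the only one there with counts.

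Jchain, which links IgA units in plasma cells (chr5:88519809-88527891, minus strand), had 0.0985, 0.114, 0.476 and 0.967 CPM in GFP-high cells of the proximal small intestine, against 110.5, 91.2, 78.7 and 97.2 CPM in GFP-negative cells. In the distal small intestine it had 0, 1.36, 2.63 and 0.245 CPM in GFP-high cells, against 239.4, 157, 224.9 and 347.5 CPM in GFP-negative cells. Relative to the mean, its GFP-negative level varied least between replicates among the 38 genes in the proximal small intestine, at 94.4 ± 13.2 CPM (SD, n = 4), where Gzma had 633.6 ± 525.9 CPM. Cd79a, the alpha chain that signals for the B cell receptor, was instead uneven in GFP-negative cells of the distal colon, with 2.78, 29.2, 6.87 and 6.18 CPM, against 0 to 0.234 CPM in its GFP-high libraries. Mcpt1 had 0.23, 0.0286, 0 and 0 CPM in GFP-high cells of the proximal small intestine, against 78.3, 4.2, 15.5 and 11.1 CPM in GFP-negative cells. The second Cd79a and the first Mcpt1 library of these groups lay far above the other 3.

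**Figure D2:**
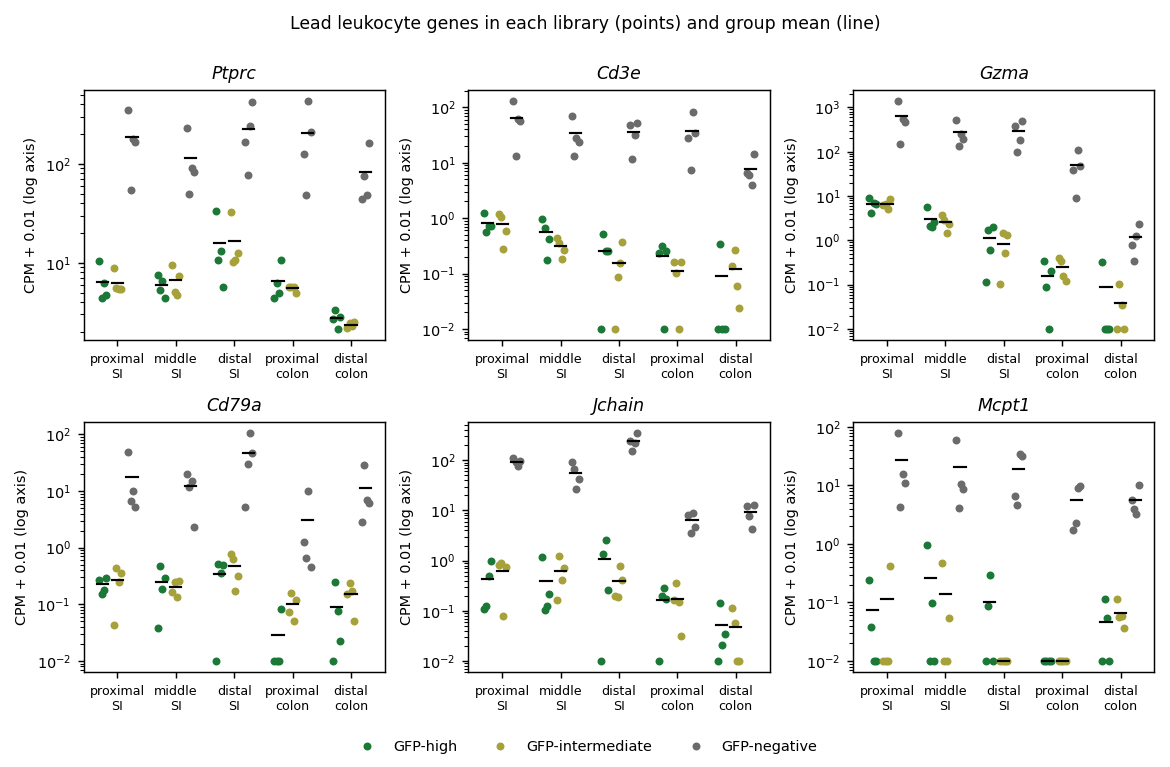
CPM (log axis, 0.01 added) of Ptprc, Cd3e, Gzma, Cd79a, Jchain and Mcpt1 in each library, by gut part, with GFP-high, GFP-intermediate and GFP-negative side by side. Every point is a library, and for Ptprc the 4 GFP-negative points of each part lie above all GFP-high points of that part.

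Genes of all 6 roles were lower in GFP-high cells, set against GFP-negative cells. The 5 pan-leukocyte genes, the 12 T cell genes, the 8 cytotoxic genes, the 4 B and plasma cell genes and the 2 mast cell proteases were all lower in all 5 parts. Of the 7 myeloid genes 6, 6, 5, 6 and 7 were lower in the 5 parts, and the myeloid genes not called were Lyz2 and Itgam. Median log2 differences by role in the proximal small intestine were -6.07 for pan-leukocyte, -6.24 for T cell, -6.42 for cytotoxic, -5.46 for B and plasma cell, -5.20 for myeloid and -9.37 for mast cell genes, against 0.00 over all genes tested. The medians were, in the same order for the distal colon, -5.69, -8.21, -6.77, -6.71, -5.64 and -8.94, against -0.03 over all genes. No bounds were used here, and the T cell, cytotoxic, myeloid and mast cell lists include genes without a count in GFP-high cells of the distal colon. Fitted values of such genes depend on the prior count, so these medians do not rank the roles.

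Many genes had no count at all in a GFP-high group. Of the 38 genes in the distal colon, 10 were at 0 in all 4 GFP-high libraries: the coreceptors Cd4 and Cd8b1, the gamma-delta receptor constant gene Trdc, the adhesion receptor Cd2, the granule genes Gzmb and Nkg7, the chemokine Xcl1, the adaptor Tyrobp, the plasmacytoid dendritic cell lectin Siglech and the chymase Mcpt2. With 3 counts per library taken as the floor, GFP-high cells were at least 94.6-fold lower for Cd2, at least 94.0-fold lower for Cd4 and at least 87.8-fold lower for Cd8b1. In the proximal colon 6 genes were at 0, and the bounds were at least 193.1-fold lower for Xcl1, at least 184.4-fold lower for Mcpt1 and at least 168.1-fold lower for Cd2. In the distal small intestine only Xcl1 was at 0, at least 21.7-fold lower. Cd5, a receptor that dampens T cell signalling, and Cd8b1 each had 4 counts over the 4 GFP-high libraries of the distal small intestine, against 3682 counts of Cd5 and 2694 of Cd8b1 over the GFP-negative ones. Of the genes with more counts, the largest differences included Mcpt1 in the proximal small intestine at -8.77 ± 1.55 (-11.26 without GFP-high replicate 1), and in the middle small intestine the granule gene Nkg7 at -8.03 ± 1.07 (-8.72 without GFP-high replicate 1) and the interleukin receptor chain Il2rb at -7.47 ± 0.84.

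Between GFP-high and GFP-intermediate cells these genes gave no call. None of the 38 was called between them in any of the 5 parts by edgeR's quasi-likelihood test, where 0.449%, 3.58%, 13.5%, 0.0428% and 1.81% of all genes were called. At an unadjusted p below 0.05, 1, 0, 1, 1 and 2 genes were lower and 0, 0, 2, 0 and 1 were higher. DESeq2 called Itgam lower in the proximal small intestine, Mcpt1 higher in the distal small intestine and Trdc lower in the distal colon. In GFP-high cells the level was a median of 1.39%, 1.68%, 0.552%, 0.586% and 0.854% of that in GFP-negative cells over the 38 genes, and in GFP-intermediate cells 1.5%, 1.27%, 0.601%, 0.537% and 1.35%.

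**Figure D3:**
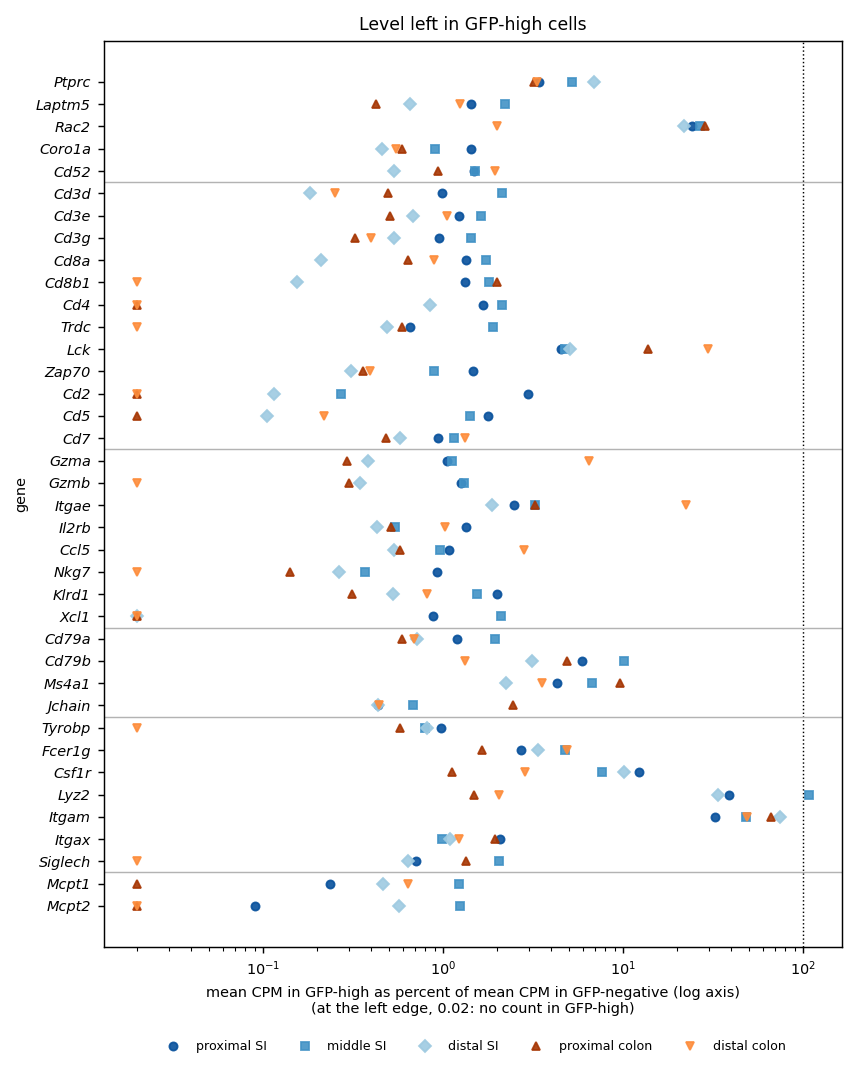
Mean CPM in GFP-high cells as a percentage of mean CPM in GFP-negative cells, for each of the 38 genes in each gut part (log axis, genes at 0 drawn at 0.02%). Most genes lie near 1%, and a few lie above 10%: Itgam in all parts, Rac2 in all but the distal colon, Lyz2 in the small intestine, Lck in the colon, Itgae in the distal colon, Csf1r in the proximal and distal small intestine and Cd79b in the middle small intestine.

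A few genes stood apart from that median. Itgam, the integrin alpha M chain of myeloid cells, was in GFP-high cells at 32.7%, 48.6%, 74.3%, 66.9% and 48.9% of its GFP-negative level in the 5 parts. It had 13.7, 8.45, 6.69 and 7.95 CPM in GFP-high cells of the distal small intestine, against 13.4, 14.1, 10.3 and 11.7 CPM in GFP-negative cells, and the first GFP-high library lay within the GFP-negative range. The difference was called in the proximal and middle small intestine and the distal colon, at -1.61 ± 0.27, -1.04 ± 0.26 and -1.03 ± 0.28, and not in the distal small intestine (-0.43 ± 0.26, adjusted p = 0.167) or the proximal colon (-0.58 ± 0.26, adjusted p = 0.101). Without GFP-high replicate 1 of the distal small intestine it was called there at -0.69, and in the proximal colon it was called without GFP-high replicate 1 or GFP-negative replicate 4, with adjusted p-values of 0.0444 and 0.022.

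Lyz2, the lysozyme of macrophages and other myeloid cells (chr10:117277331-117282321, minus strand), differed between organs. GFP-high cells of the middle small intestine had 17.9, 15, 21.8 and 6.92 CPM, against 15.4, 7.38, 23.2 and 11.2 CPM in GFP-negative cells, and the groups overlapped. GFP-high cells of the proximal colon had 0.0204, 0.734, 0.522 and 0.307 CPM, against 7.41, 13.6, 55.3 and 29.7 CPM in GFP-negative cells, with no overlap. GFP-high cells of the distal colon had 0.0711, 1.04, 0.0437 and 0 CPM, against 4.05, 9.88, 14 and 28.5 CPM in GFP-negative cells. The log2 difference was -1.37 ± 0.70 (adjusted p = 0.104), 0.11 ± 0.68 (adjusted p = 0.929) and -1.57 ± 0.70 (adjusted p = 0.055) in the 3 parts of the small intestine, and -6.08 ± 0.87 and -5.64 ± 0.87 in the proximal and distal colon. Without GFP-negative replicate 2 it was called in the distal small intestine, with an adjusted p of 0.0247, and the colon values were -5.40 without GFP-negative replicate 3 of the proximal colon and -8.46 without GFP-high replicate 2 of the distal colon. The drop was larger in the colon than in the small intestine by -4.91 ± 0.69 on the log2 scale (test of the difference between organs, adjusted p = 8.36e-08; -6.32 without GFP-high replicate 2 of the distal colon). Within replicate numbers, GFP-high cells had 15.9% to 203% of the GFP-negative level in the small intestine and 0% to 10.5% in the colon.

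Its close paralog Lyz1, the lysozyme of Paneth cells, was abundant in GFP-high cells of the small intestine, where Lyz2 was not called lower. Lyz1 averaged 5114, 9147, 8869, 0.529 and 1.4 CPM in GFP-high cells of the 5 parts, against 387.4, 220.2, 179.3, 1.4 and 3.49 CPM in GFP-negative cells. Of the 1267 stretches of 50 bases in the Lyz2 transcripts, 195 (15.4%) also occur in Lyz1. The list of 8 Paneth cell genes summed to 5265 to 25726 CPM in GFP-high libraries of the small intestine, against 460.7 to 1418 CPM in its GFP-negative libraries. In the colon it summed to 20.9 to 404.1 CPM in GFP-high libraries, against 62.9 to 1175 CPM in GFP-negative libraries. What share of Lyz2 counts stems from Lyz1 reads was not tested, and Lyz2 values in the small intestine are uncertain for that reason. Csf1r, the receptor for the macrophage growth factor, had 0, 0.528, 1.19 and 0.327 CPM in GFP-high cells of the distal small intestine, against 4.54, 1.76, 5.89 and 8.16 CPM in GFP-negative cells. In the proximal colon it had 0, 0.161, 0.0454 and 0 CPM in GFP-high cells, against 1.76, 3.61, 7.99 and 4.81 CPM in GFP-negative cells. Its drop was larger in the colon by -2.48 ± 0.79 on the log2 scale (adjusted p = 0.0121; -3.35 without GFP-high replicate 2 of the proximal colon).

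Rac2, the haematopoietic form of the Rac GTPases (chr15:78559167-78572783, minus strand), was well detected in GFP-high cells of 4 parts. It had 24.1, 13.4, 14.6 and 14.6 CPM in GFP-high cells of the proximal small intestine, against 156.9, 20.7, 50.3 and 48.4 CPM in GFP-negative cells. In the proximal colon it had 10.4, 16.6, 9.53 and 18.8 CPM in GFP-high cells, against 41.6, 15.1, 100.2 and 36.1 CPM in GFP-negative cells, and the groups overlapped. The distal colon had 0.426, 0.391, 0.481 and 0.556 CPM in GFP-high cells and 0.925 to 1.41 CPM in GFP-intermediate cells, against 14.9, 27.8, 15.6 and 33.8 CPM in GFP-negative cells. Rac2 differed on the log2 scale by -2.05 ± 0.47, -1.90 ± 0.47, -2.20 ± 0.48, -1.80 ± 0.47 and -5.63 ± 0.58 in the 5 parts. Without GFP-negative replicate 1 it was -1.26 in the proximal and -1.30 in the middle small intestine, and without GFP-negative replicate 3 it was -1.13 in the proximal colon and no longer called (adjusted p = 0.0758). The drop was larger in the distal than in the proximal colon by -3.82 ± 0.70 on the log2 scale (adjusted p = 0.0011; -4.46 without GFP-negative replicate 3 of the proximal colon), where 0.257% of all genes were called in that direction. It was also larger in the colon than in the small intestine, by -1.66 ± 0.44 (adjusted p = 0.00202), when the 2 colon parts were averaged; the fitted drop in the proximal colon alone was no larger than in any small intestinal part. Within replicate numbers GFP-high cells had 1.40% to 3.09% of the GFP-negative Rac2 level in the distal colon and 9.51% to 110% in the proximal colon.

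Within GFP-high cells both Rac2 and tuft cell genes were lower in the distal colon than in the proximal small intestine, while GFP-high cells of the small intestine, against GFP-negative cells, had lower Rac2 and higher levels of most tuft cell genes. The 14 genes of the tuft cell list summed to 610.4, 319.3, 426.3 and 393.2 CPM in GFP-high cells of the proximal small intestine, against 180.4, 73.9, 118.8 and 89.6 CPM in GFP-negative cells. The same genes of the distal colon summed to 103.2, 96.1, 100.8 and 120.2 CPM in GFP-high cells, against 418.5, 347, 449.4 and 406.5 CPM in GFP-negative cells. Of the 14, 11, 10, 10, 3 and 0 had a higher level in GFP-high cells, against GFP-negative cells, in the 5 parts. Of all genes, 22.5%, 22.7%, 25.7%, 11.3% and 11.2% did, so that the 3 in the proximal colon are near the background. Of the same 14 genes 0, 0, 0, 2 and 12 were lower, where 24.6%, 25.6%, 26.2%, 14.0% and 13.9% of all genes were. The 2 in the proximal colon are again near the background. In GFP-intermediate cells of the distal small intestine the first library had 62.7 CPM of Rac2 and 32.7 CPM of Ptprc, the highest of its group for both. That library had 1288 CPM of tuft genes, against 505.2 to 542.9 CPM of tuft genes in the other 3. A single library cannot show whether these genes vary together. The part of tuft cells in the Rac2 and Ptprc counts was not tested. Ptprc counts were high in GFP-high cells relative to another pan-leukocyte gene, Laptm5, a lysosomal membrane protein. Pooled over 4 libraries, GFP-high cells of the 5 parts had 408.7, 507.1, 1662, 2230 and 679.9 counts of Ptprc per 100 counts of Laptm5. The means in GFP-negative cells were 180.7, 201.1, 161.2, 280.9 and 242.9. For Rac2 per 100 counts of Laptm5, the pooled GFP-high values were 1067, 758.6, 1631, 4616 and 116.4. Its GFP-negative means were 62.0, 58.3, 53.3, 71.8 and 74.4 in the same order.

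Lck, the kinase that starts T cell receptor signalling (chr4:129548344-129573641, minus strand), and Itgae, the integrin alpha E chain (chr11:73090583-73147446, plus strand), went the other way and stood out in the distal colon. Lck had 3.67, 2.63, 4.31 and 3.27 CPM in GFP-high cells of the distal colon, against 9.42, 11.2, 9.41 and 16.7 CPM in GFP-negative cells. In the proximal small intestine it had 3.23, 2.13, 1.85 and 3.18 CPM in GFP-high cells, against 139.9, 13.5, 43.3 and 31.2 CPM in GFP-negative cells. The GFP-high ranges of these 2 parts overlapped, while 3 of the 4 GFP-negative libraries of the proximal small intestine lay above all 4 of the distal colon. The proximal colon averaged 5.16 CPM of Lck over its GFP-high libraries and 37.5 CPM over its GFP-negative ones. The distal colon averaged 3.47 and 11.7 CPM. Between the colon parts, the smaller distal drop thus came with a lower GFP-negative level and not with a higher GFP-high level. Lck differed on the log2 scale by -4.46 ± 0.53, -4.40 ± 0.53, -4.29 ± 0.52, -2.86 ± 0.49 and -1.75 ± 0.47 in the 5 parts. Leaving out GFP-negative replicate 1 gave -3.50 in the proximal and -3.59 in the middle small intestine, and leaving out GFP-negative replicate 3 gave -2.05 in the proximal colon. The drop was smaller in the colon than in the small intestine by 2.08 ± 0.42 on the log2 scale (adjusted p = 8.88e-05). Cd3e and Trdc, other T cell genes, were at or near 0 in the same GFP-high libraries of the distal colon: Trdc was at 0 in all 4 and Cd3e in 3 of 4.

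Itgae had 1.29, 2.87, 2.16 and 1.32 CPM in GFP-high cells of the distal colon, against 7.3, 5.13, 5.11 and 16.6 CPM in GFP-negative cells. In the proximal colon it had 1.4, 0.964, 2.29 and 1.74 CPM in GFP-high cells, against 45.8, 10.1, 106.3 and 35.7 CPM in GFP-negative cells. The groups did not overlap in either part. Over all gut parts, mean Itgae spanned 1.6 to 3.46 CPM in GFP-high libraries and 8.53 to 140 CPM in GFP-negative libraries. The lowest GFP-negative mean was that of the distal colon. Itgae differed on the log2 scale by -2.16 ± 0.51 in the distal and -4.95 ± 0.57 in the proximal colon (-4.22 without GFP-negative replicate 3), and -5.34 ± 0.58, -4.95 ± 0.57 and -5.75 ± 0.59 in the small intestine (-4.20 in the middle part without GFP-negative replicate 1). The drop was smaller in the colon than in the small intestine by 1.79 ± 0.45 (adjusted p = 0.00136). Between the colon parts the difference of 2.79 ± 0.71 was called (adjusted p = 0.0443; 0.36% of all genes), but not in 10 of the 16 fits without a single library, among them the fit without GFP-negative replicate 3 of the proximal colon, which gave 2.10 with an adjusted p of 0.246. The annotated span of Itgae overlaps that of the gene Haspin on the other strand. Overlap of their exons was not examined and the strand of counting is not stated, so some reads of the 2 genes might not be told apart. The same limit holds for Csf1r, Coro1a, Cd52, Cd3e, Trdc, Zap70, Cd7, Xcl1 and Ms4a1, which also overlap a gene on the other strand. On their own strand Itgam overlaps Gm49368, Ptprc overlaps A130071D04Rik, and Cd3e, Lck and Csf1r overlap a further annotated gene. Over all 38 genes, 4 had a larger and 2 a smaller drop in the colon than in the small intestine. Of all genes, 17.7% and 14.5% were called, so that these 4 and 2 of 38 are no more than the background. Besides those named it was Cd4, at -4.16 ± 1.51 (test of the difference between organs, adjusted p = 0.031). Cd4 was at 0 in all 8 GFP-high libraries of the colon, so that its fitted value depends on the prior count, and it was not called without GFP-negative replicate 3 of the proximal colon (-3.51, adjusted p = 0.0593).

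**Figure D4:**
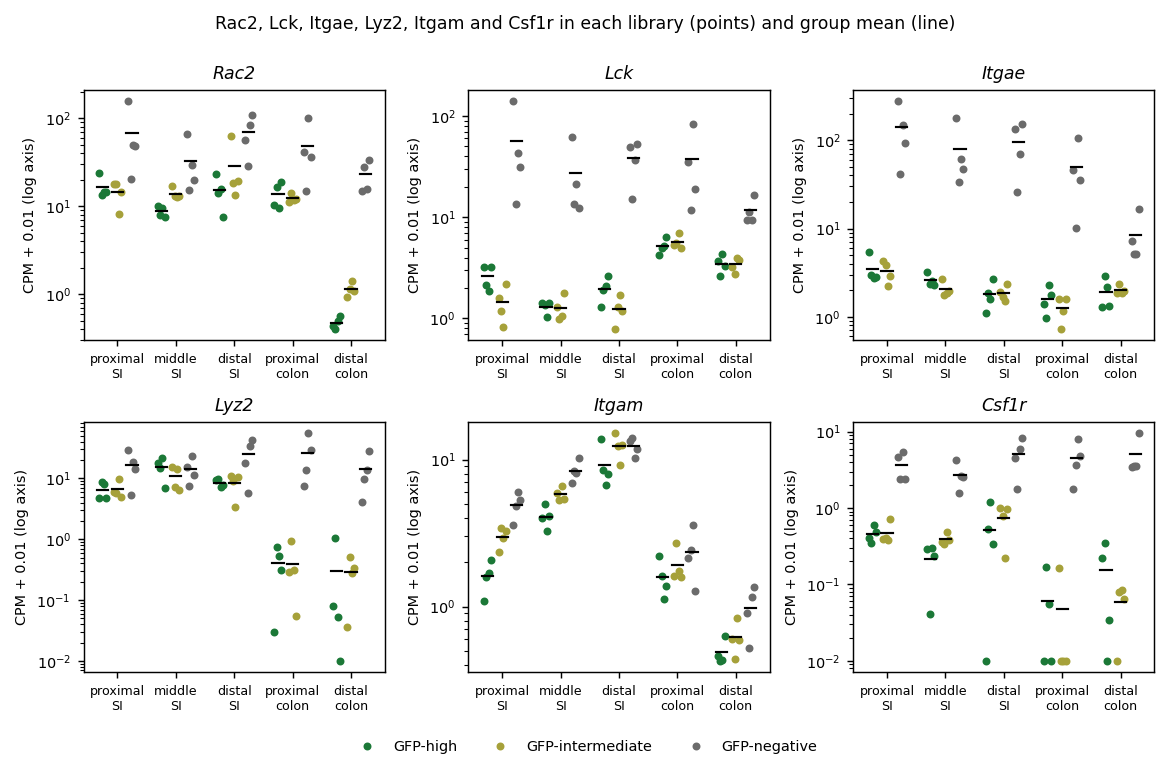
CPM (log axis, 0.01 added) of Rac2, Lck, Itgae, Lyz2, Itgam and Csf1r in each library, by gut part and GFP fraction. In the distal colon the GFP-high points of Rac2 sit below 0.6 CPM while those of Lck sit between 2.63 and 4.31 CPM.

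All 38 genes had counts in the GFP-negative cells of all 5 parts, but the genes with the highest levels were not the same. Levels per transcript length (TPM, with the deposited gene lengths) put Gzma first in the proximal small intestine at 1699 ± 1368 TPM (mean ± SD, n = 4), ahead of the chemokine Ccl5 at 876.7 ± 889.6 and Gzmb at 517.3 ± 336.5 TPM, and these 3 overlap within their spread. In the distal small intestine Jchain, at 275.7 ± 94.6 TPM, was next after Gzma, Ccl5 and Gzmb. In the proximal colon Ccl5, Cd7, Gzma, Klrd1 and Gzmb lay between 153.2 and 226.9 TPM and did not differ beyond their spread. In the distal colon no granzyme was among the first 5 genes, which were Lyz2, the actin regulator Coro1a, Laptm5, Ccl5 and Cd79a at 25.8 to 36.8 TPM. Cytotoxic genes made up a median of 51.1%, 48.1%, 32.3%, 29.8% and 11.6% of the counts of the 38 genes in the 5 parts.

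Cytotoxic genes and 7 of 12 T cell genes were lower in the distal than in the proximal colon. In GFP-negative cells 17 of the 38 genes were lower and 1 was higher, where 7.17% and 6.39% of all genes were called, and the median log2 difference was -1.36, against -0.02 over all genes. All 8 cytotoxic genes and 7 of 12 T cell genes were among the 17, with no B cell or mast cell gene. The T cell genes Cd4, Cd8b1 and Cd5 were not called and had higher means in the distal colon. Their means were 3.38, 3.15 and 2.78 CPM there, against 1.05, 1.42 and 1.28 CPM in the proximal colon. Gzmb had 0.71, 1.14, 0.896 and 1.99 CPM in the distal colon, against 38, 15, 148.5 and 39.7 CPM in the proximal colon. Klrd1, a subunit of natural killer cell receptors, had 3.9, 3.74, 3.98 and 9.14 CPM in the distal colon, against 27.6, 10.9, 131.1 and 54.8 CPM in the proximal colon. Neither gene overlapped between the parts, and 8 of the 38 did not overlap, counted in both directions. Of all genes, 6.74% had every distal colon library below every proximal colon library. That share covers a single direction, so it is not a like background for the 8 genes. The log2 difference was -5.67 ± 0.70 for Gzmb (adjusted p = 2.15e-08), -5.44 ± 0.77 for Gzma (3.35e-07), -3.43 ± 0.70 for Klrd1 (0.000289), -3.02 ± 0.66 for Cd7 (0.000735) and -2.90 ± 0.68 for the coreceptor chain Cd8a (0.00194). The third GFP-negative replicate of the proximal colon was the highest there for most genes, with a summed level of 2503 CPM against 292.8 to 863.6 CPM in the other 3. Without it 8 genes were lower, and the differences were -4.71 for Gzmb, -4.76 for Gzma, -2.59 for Klrd1, -2.10 for Cd7 and -2.24 for Cd8a, all still called; without all libraries numbered 3, 3 genes were lower. Within numbers 1 to 4, 27, 20, 37 and 23 of the 38 genes were lower in the distal colon.

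The B cell gene Ms4a1, the CD20 antigen, was the only gene higher in the distal colon, with 1.92, 16.2, 4.82 and 9.32 CPM, against 1.2, 0.764, 6.58 and 0.0772 CPM in the proximal colon. Its difference was 1.90 ± 0.64 (adjusted p = 0.0381). It was not called without GFP-negative replicate 2 or 4 of the distal colon, or 1, 2 or 4 of the proximal colon (adjusted p of 0.209, 0.0683, 0.108, 0.112 and 0.1), and it was 3.57 without replicate 3 of the proximal colon. Xcl1 was lower by a log2 difference of -3.45, a call that was lost without that same library (-2.87, adjusted p = 0.061). Itgam was lower too, at -1.27 ± 0.27 (adjusted p = 0.000507).

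Between the end of the small intestine and the start of the colon, all 4 B and plasma cell genes differed, alongside some genes of other roles. In GFP-negative cells of the proximal colon 10 of the 38 genes were lower and 2 were higher than in the distal small intestine, where 14.7% and 20.4% of all genes were called and the median over all genes was 0.11. The 10 were all 4 B and plasma cell genes, 3 of 12 T cell genes, 2 of 7 myeloid genes and 1 of 8 cytotoxic genes, and the 2 higher ones were cytotoxic genes. Jchain had 8.25, 3.5, 8.82 and 4.74 CPM in the proximal colon, against 239.4, 157, 224.9 and 347.5 CPM in the distal small intestine, a log2 difference of -5.26 ± 0.74 (adjusted p = 5.56e-08). Cd79a had 1.25, 0.639, 9.95 and 0.438 CPM in the proximal colon, against 5.13, 30.1, 105 and 46.4 CPM in the distal small intestine; the third library of the proximal colon lay above the first of the distal small intestine, so the groups overlapped. Ms4a1 differed by -4.13 ± 0.70 (-5.81 without GFP-negative replicate 3 of the proximal colon), Cd79b by -4.36 ± 0.84 (-5.94 without it) and the coreceptor Cd4 by -3.97 ± 0.95 (-5.29 without it). Klrd1 was higher at 1.80 ± 0.65 (adjusted p = 0.0264), as was Xcl1 at 2.87 ± 0.96 (adjusted p = 0.0168). Neither call held without GFP-negative replicate 3 of the proximal colon (Klrd1 0.96, adjusted p = 0.281; Xcl1 adjusted p = 0.0667) or without replicate 2 of the distal small intestine (adjusted p = 0.0951 and 0.0522). Klrd1 also missed the threshold without replicate 1 (0.0514) and Xcl1 without replicate 3 of the distal small intestine (0.0504), and without replicate 1 Xcl1 was 3.50. Within numbers, 31, 32, 15 and 36 of the 38 genes were lower in the proximal colon.

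Over whole organs, 31 of the 38 genes were lower in GFP-negative cells of the colon than of the small intestine and none was higher (none also at an unadjusted p below 0.05 and by DESeq2), where 22.4% and 28.1% of all genes were called. The median log2 difference was -1.80, against 0.05 over all genes. The largest were Gzma at -5.57 ± 0.53 (adjusted p = 2.63e-13), Gzmb at -4.42 ± 0.45 and Jchain at -3.83 ± 0.47, and only Jchain did not overlap between the organs. Of all genes, 5.16% had every colon library below every small intestinal library. The 7 genes not called were Ptprc, Cd52, Cd2, Klrd1, Xcl1, Csf1r and Lyz2. With the replicate number as a block, Mcpt1, Mcpt2, Cd5, Cd3d, Rac2 and Il2rb were no longer called, with adjusted p-values of 0.061, 0.0819, 0.137, 0.077, 0.0871 and 0.0601. Without the libraries numbered 1, 15 genes were lower and 1 higher, and within numbers 38, 32, 34 and 32 genes were lower in the colon. Along the small intestine, GFP-negative cells of the distal and proximal parts differed in 1 gene: Itgam was higher in the distal part, at 12.4 ± 1.73 CPM against 4.91 ± 1.02 CPM in the proximal part (SD, n = 4; 1.33 ± 0.26, adjusted p = 0.000154), where 6.67% of all genes were higher and 8.9% lower. No gene was lower there by edgeR's quasi-likelihood test or by DESeq2, and 1 was at an unadjusted p below 0.05; edgeR's newer quasi-likelihood method called 4 lower and 5 higher. Counts higher in the distal part were 4 without GFP-negative replicate 1 of the proximal part and 2 without replicate 1 of the distal part. The number of genes with lower values in the distal part was 34, 20, 18 and 3 within numbers 1 to 4.

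Ratios of leukocyte genes within a library compare genes without the total leukocyte level, except where a gene also has counts outside leukocytes. The ratios were chosen after values were seen, and are given without a test. For every 100 counts of Cd8a, GFP-negative libraries had 43.4, 36.3, 27.5 and 38.7 counts of Cd8b1, the beta chain, in the distal colon, and 1.42, 0.912, 2.82 and 2.2 in the proximal colon. In the proximal, middle and distal small intestine the mean was 6.96 ± 1.97, 6.24 ± 1.56 and 11 ± 3.43 (SD, n = 4). The 2 colon parts thus lay on either side of the small intestine with no overlap between them. Cd4 per 100 of Cd8a also had its highest mean in the distal colon and its lowest in the proximal colon, with 29.6, 72.4, 43.4 and 29.5 counts per 100 of Cd8a in the distal colon and 1.23, 0.729, 2.25 and 0.996 in the proximal colon.

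Gzma per 100 counts of Cd3e was 974.2 ± 139.4, 879.5 ± 125, 785.4 ± 148.9, 133 ± 7.89 and 16.4 ± 11 in the 5 parts, and no library of the proximal colon reached any of the small intestine. In the proximal small intestine the SD of that ratio was 139.4 on a mean of 974.2, while the Gzma level itself was 633.6 ± 525.9 CPM. Klrd1 per 100 counts of Cd3e had its highest mean in the proximal colon, at 97.1, 148.5, 161 and 156.7, against means of 56.3 ± 16.3, 51.6 ± 11.5 and 44.5 ± 11.1 in the small intestine and 71.4 ± 19.4 in the distal colon. Itgae per 100 of Cd3e was 234.3 ± 61.6, 232.8 ± 28.8 and 253.4 ± 34.4 in the small intestine and 132.7 ± 24.2 and 110.3 ± 18.7 in the colon. Trdc per 100 of Cd3e was 57.3 ± 9.39, 51.9 ± 7.05, 43.6 ± 18, 37.2 ± 7.67 and 22.3 ± 8.5 in the 5 parts, where neighbouring parts overlapped. Cd79a per 100 of Cd3e ranged widely within parts, with 42, 483, 173.3 and 43.8 in the distal colon and 4.4, 8.68, 12.2 and 1.25 in the proximal colon.

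**Figure D5:**
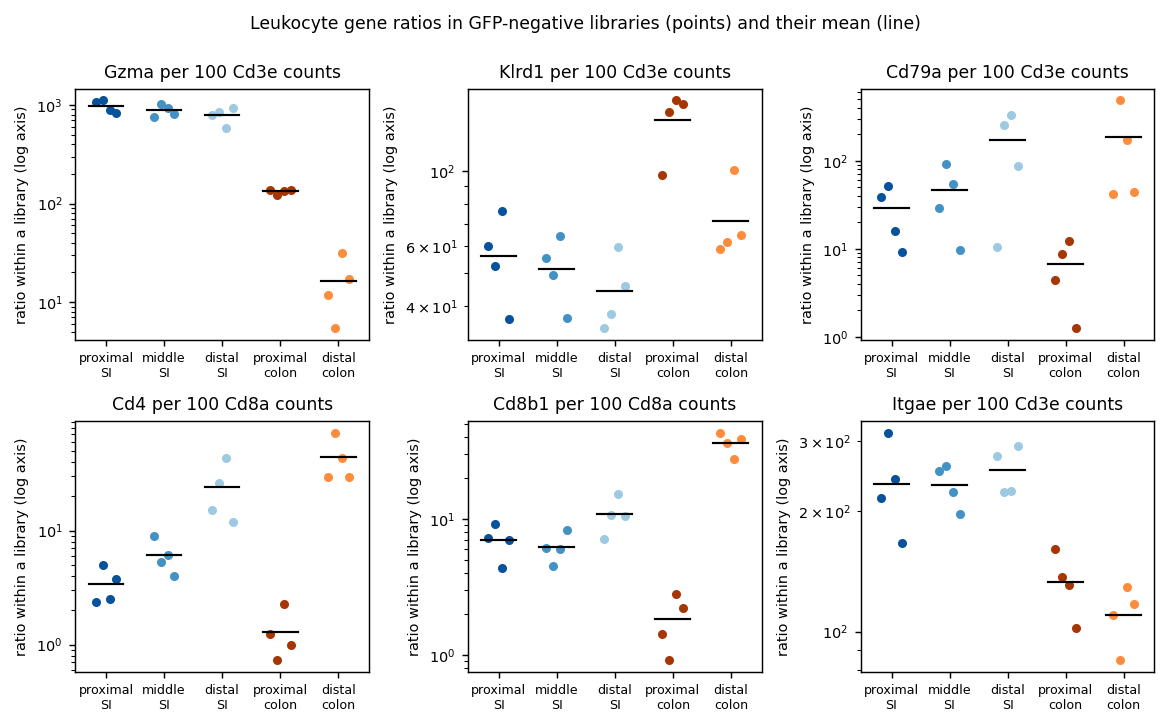
Counts of the first gene per 100 counts of the second within each GFP-negative library (log axis), for Gzma, Klrd1, Cd79a and Itgae over Cd3e, and Cd4 and Cd8b1 over Cd8a, by gut part. The Cd8b1 points of the distal colon lie at 27.5 to 43.4 and those of the proximal colon at 0.912 to 2.82.

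Other leukocyte genes, outside the 38, were counted from lists of the same cell types. Of 29 other T and natural killer cell genes, 28, 28, 29, 28 and 28 were lower in GFP-high cells, against GFP-negative cells, in the 5 parts. Of 14 other B and plasma cell genes, 13, 14, 14, 12 and 12 were lower. Of 19 other myeloid genes, 14, 14, 13, 13 and 13 were lower, and in the 3 small intestinal parts 2 were higher, Lyz1 and the endotoxin receptor Cd14. Of all genes, 22.5%, 22.7% and 25.7% were higher in these 3 parts, so that 2 of 19 are no more than the background. Of 8 other mast cell genes 7 passed the filter, of which 2, 3, 3, 1 and 2 were lower. Of all genes, 24.6%, 25.6%, 26.2%, 14.0% and 13.9% were lower, which is the background for each of these lists. The growth factor receptor Kit and the histamine enzyme Hdc were higher in the middle and distal small intestine. That is near the share of all genes that were higher there. In GFP-negative cells of the proximal colon against the distal small intestine, 12 of the 14 B and plasma cell genes were lower and 4 of the 29 T and natural killer cell genes were higher, where 3 were lower. Of all genes 14.7% were lower and 20.4% higher, so that these 4 and 3 of 29 are no more than the background. The 4 were Klrk1, Klre1, Ncr1 and Txk. Klrk1, an activating receptor of natural killer and T cells, had 5.61, 2.88, 25.1 and 9.02 CPM in the proximal colon, against 2.59, 0.171, 1.61 and 0.903 CPM in the distal small intestine. Ncr1, the natural killer receptor NKp46, had 0.745, 0.278, 4.99 and 1.52 CPM in the proximal colon, against 0.419, 0.0285, 0.161 and 0.117 CPM in the distal small intestine. The third library of the proximal colon was again the highest for both.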

How the data were processed

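PolyA RNA of GFP-sorted cells was sequenced in 60 libraries. The deposited table holds whole, unnormalised counts per gene and library, which was all that was analysed, with the deposited gene lengths for TPM. According to the submitters' processing notes the authors used STAR, Subread featureCounts and edgeR with the mm10 build; versions, strandedness and annotation release are not given in the sources used here. Per the labels, at least 30000 cells of a colon fraction and 50000 of a small intestinal fraction were sorted. The deposited log2 values were not used.

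The filter was filterByExpr with the 15 groups; it kept 23360 genes, which held 99.97% to 99.99% of each total. Library totals were adjusted by TMM (factors 0.777 to 1.16), and the counts fitted with edgeR 4.0.16 (glmQLFit, 45 residual degrees of freedom; R 4.3.3, limma 3.58.1) over all 60 libraries with 1 mean per group. In all 21 comparisons were tested, two-sided, with Benjamini-Hochberg adjustment over all genes and calls below 0.05; the standard error is the log2 difference over the square root of F. Organ means weight gut parts equally. Genes without counts in a group are given as bounds against 3 counts per library, which cover counting error only. Total counts, with a median of 81230235 per library, set the precision of low levels: below about 0.1 CPM a value rests on a few reads.

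The 38 genes, the lists of other cell types and the lead genes shown per library were chosen with earlier results of these data known. Lead genes came from each role; also named were genes not called or opposed to the rest, and the 3 largest differences of a comparison. The batch number of the deposited table equals the replicate number in 60 of 60 libraries and was read as pairing them. Residual correlations over 8000 genes averaged 0.185 over 420 same-numbered pairs of libraries, 62.4% of them above 0.1, and -0.058 over 1260 other pairs. Alternatives were DESeq2 1.42.0, its size factors, no filter, the newer quasi-likelihood method, only the groups compared, the replicate block, raw library totals for summed levels, and each library or replicate number left out. The genes tested and the dispersion trend were held in fits without a single library. In fits without a replicate number both were determined anew. Counts within replicate numbers and ratios of genes were added after seeing the data.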

Additional observations from a re-analysis of the deposited data

Results flagged for a closer look

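Of 137 groups of 4 libraries of lead genes looked at, 20 had a library set apart from the other 3 by Dixon's criterion, where chance sets apart about 1 in 20. That rate holds for normally distributed values. The criterion was applied to CPM without a log transform, and groups with only very low values were left out. The number set apart is therefore a description and not a test. In GFP-negative cells the libraries set apart were Mcpt1 at 78.3 CPM in the proximal and 59.9 CPM in the middle small intestine, Cd4 at 14.5 CPM in the middle small intestine and Cd79a at 49.7 CPM in the proximal small intestine, all high and all of replicate 1. Also high were Cd79a at 9.95 CPM in replicate 3 of the proximal colon and at 29.2 CPM in replicate 2 of the distal colon, and Csf1r at 9.5 CPM in replicate 4 of the distal colon.

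In GFP-high cells the libraries set apart were Gzma at 5.79 CPM, Jchain at 1.15 CPM and Mcpt1 at 0.936 CPM, all 3 in replicate 1 of the middle small intestine, Itgae at 5.35 CPM in the proximal small intestine, and Laptm5 at 1.25 CPM and Lyz2 at 1.04 CPM in the distal colon. In GFP-intermediate cells they were Ptprc at 8.74 CPM, Csf1r at 0.699 CPM and Siglech at 0.794 CPM in the proximal small intestine, Laptm5 at 1.18 CPM and Cd8a at 1.72 CPM in the middle small intestine, Ptprc at 32.7 CPM in the distal small intestine, and Ptprc at 4.94 CPM in the proximal colon, a low value.

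The difference between GFP-high and GFP-negative cells itself differed between organs for 6 genes (edgeR interaction test, colon minus small intestine on the log2 scale): -4.91 for Lyz2, -4.16 for Cd4, -2.48 for Csf1r, -1.66 for Rac2, 1.79 for Itgae and 2.08 for Lck. Of all genes, 17.7% were lower and 14.5% higher in that test, so that these calls are no more than the background. The Cd4 call was lost without GFP-negative replicate 3 of the proximal colon. Between the distal and proximal colon the difference between fractions differed for 2 genes, Rac2 at -3.82 and Itgae at 2.79. In these directions 0.257% and 0.36% of all genes were called. The Itgae call was lost in 10 of the 16 fits without a single library.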

How the results depend on the processing

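The counts of genes lower in GFP-high or GFP-intermediate than in GFP-negative cells stayed within 1.5 times under every alternative run, with no gene higher. Of the 69 printed log2 differences, 1419 of 1486 values under alternatives kept direction and side of the threshold; 53 lost the call, 11 gained it and 3 changed sign, all of Lyz2 in the middle small intestine (-0.11 to 0.44 without libraries, and -0.10 without all numbered 2). With the replicate block all 69 kept direction and call, and among the counts the block moved colon against small intestine to 25 lower (6 genes lost), changing no other call. Between GFP-high and GFP-intermediate cells DESeq2 gave 1 gene lower in the proximal small intestine (Itgam) and the distal colon (Trdc) and 1 higher in the distal small intestine (Mcpt1), and the fit to only the groups compared gave 1 lower in the proximal (Itgam) and middle (Rac2) small intestine and the distal colon (Rac2). In GFP-negative cells of distal against proximal small intestine, the newer method gave 4 lower and 5 higher and only the groups compared 3 higher, with ranges of 0 to 1 lower and 1 to 5 higher without libraries. For distal against proximal colon, 4 were higher with the newer method and 0 with only the groups compared; without libraries, 3 to 21 were lower and 0 to 4 higher. For proximal colon against distal small intestine 1 was higher with only the groups compared and with DESeq2, and 0 to 2 without libraries. For colon against small intestine 15 to 32 were lower and 0 to 1 higher without libraries; DESeq2 called 22 lower. The organ interaction had 2 to 6 lower. The colon interaction had 0 to 1 lower and 0 to 1 higher without libraries (Rac2 was lost without all libraries numbered 4), 0 higher with the newer method and with only the groups compared, and 2 higher with DESeq2. The cause was not tested. Raw library totals moved none of the 15 summed levels beyond 1 SD. Genes near 0 in GFP-high cells rest on few reads, so their folds are the least precise.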
